A study of Sus scrofa with 19 samples.

Results

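DMBT1 (deleted in malignant brain tumors 1) is the gene of a large glycoprotein that epithelia secrete onto mucosal surfaces. On the pig array used here it was taken as every probe whose RefSeq accession belongs to DMBT1 of Sus scrofa. That gave 2 of 43603 probes and 1 of the 3123 genes to which a symbol could be given. The tissue was endometrium, which lines the uterus. It came from gilts, that is, female pigs that have not yet farrowed. They were crossbred, 8 months old and matched in genetic background. Both uterine horns of each gilt were cannulated on days 8 to 9 of the third natural cycle, and infusions were given every 4 h over 24 h on days 11 to 12 after oestrus began.

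Control gilts, numbered 9, 14, 28 and 46, received placebo in both horns, namely 5 mL of saline with 1% ethanol, and gave 4 arrays of horns marked L and 4 of horns marked P. Treated gilts received 200 µg of prostaglandin E2 (PGE2) with 33.3 µg of estradiol (E2) per infusion in one horn, drawn at random, and the same placebo in the other horn. They gave 5 arrays of placebo horns (gilts 36, 38, 41, 44 and 47) and 6 of hormone horns (the same gilts and gilt 40). All gilts of both kinds underwent surgery, and the labels name neither a group without infusion nor PGE2 or E2 given alone. The meaning of L and P is not spelled out in the labels, and all 5 placebo horns of treated gilts were marked L, as was the hormone horn of gilt 40. The other 5 hormone horns were marked P.

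The DMBT1 protein is built from repeated scavenger receptor cysteine-rich (SRCR) domains. It binds bacteria and also host proteins such as the lung collectins, immunoglobulin A, complement component C1q, lactoferrin and galectin-3. In mucosae such as gut and airway its gene is known to respond to bacterial sensing and to cytokines, and in the uterus of several mammals it is known as a gene that responds to estrogen. In the pig it is also known as an oviduct protein to which sperm bind.

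DMBT1 was proposed for this account because it stood higher in treated gilts than in control gilts. Its levels, and its differences from control gilts, are therefore given as a description without a test. Levels are the log2 of the background-corrected signal minus the log2 of the 75th percentile of all probes on the same array, so that 0 is the brightness of that percentile. The brighter of the 2 probes (A_72_P177996) stands for the gene unless the dimmer probe (A_72_P537573) is named.

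In the control horns marked L, the level of the brighter probe was -4.29 in gilt 9, -4.06 in gilt 14, -5.55 in gilt 28 and -2.48 in gilt 46. In the control horns marked P it was -6.14, -3.71, -4.38 and -3.11 in the same gilts. The control horns thus spanned a wide range, and gilt 46 was the highest on both sides. In the placebo horns of treated gilts it was -0.86 in gilt 36, -1.03 in gilt 38, -1.69 in gilt 41, 0.39 in gilt 44 and 0.51 in gilt 47. In the hormone horns it was 1.02 in gilt 36, 1.25 in gilt 38, 2.14 in gilt 40, -0.73 in gilt 41, 2.05 in gilt 44 and 1.60 in gilt 47. Every horn of a treated gilt, whether it had received hormones or placebo, lay above every horn of a control gilt. Hormone and placebo horns overlapped through gilt 41, whose hormone horn lay below the placebo horns of gilts 44 and 47.

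**Figure D1:**
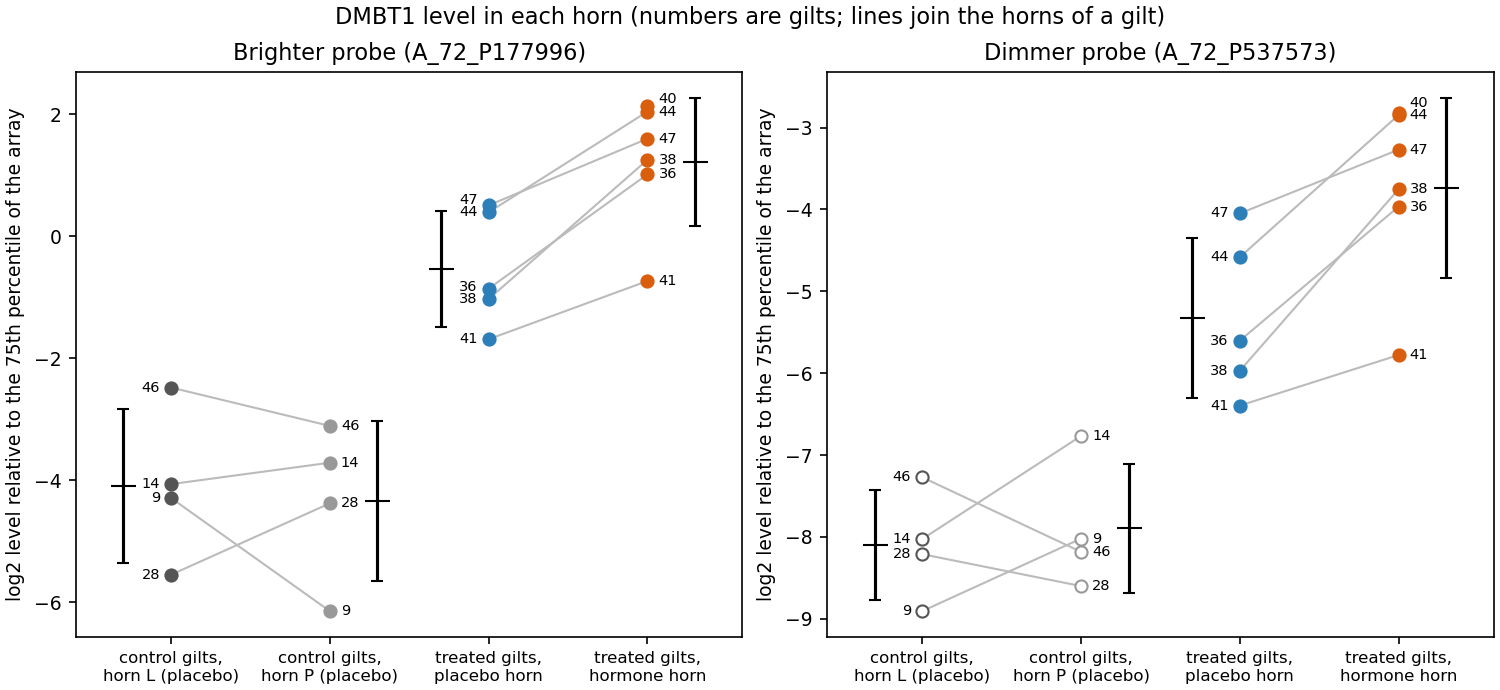
DMBT1 level (log2, relative to the 75th percentile of each array) in 19 horns for the brighter probe (left) and the dimmer probe (right). Points are horns numbered by gilt, grey lines join the horns of a gilt, open points were not well above background, and the bars are group means ± SD (n = 4, 4, 5 and 6). On the left, control horns lie between -6.14 and -2.48, placebo horns of treated gilts between -1.69 and 0.51 and hormone horns between -0.73 and 2.14.

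The order of the group means was hormone horns (1.22 ± 1.05, SD, n = 6), placebo horns of treated gilts (-0.53 ± 0.95, n = 5), control horns marked L (-4.09 ± 1.26, n = 4) and control horns marked P (-4.33 ± 1.31, n = 4). The control groups differed by less than either SD, whereas the step from control gilts to the placebo horns of treated gilts exceeded the SDs on both sides. In the fit to all 19 arrays, with gilt as a random block, hormone horns stood 5.43 ± 0.59 log2 units (SE) above control gilts, a 43.2-fold difference with a 95% interval of 4.20 to 6.67 log2 units. Placebo horns of treated gilts stood 3.78 ± 0.61 above control gilts, or 13.7-fold, with an interval of 2.50 to 5.06. Both differences share the 8 control arrays. With normexp, another background correction that pulls dim signals together, they were 3.97 and 2.45. Among 3010 genes with a symbol and a tested probe, DMBT1 ranked 3 in the first difference and 4 in the second, counted from the largest rise. In the same fit, 11.6% of the 39092 tested probes passed in hormone horns against control gilts (6.72% higher, 4.93% lower) and 4.42% in placebo horns against control gilts (2.46% higher, 1.96% lower; limma, Benjamini-Hochberg adjusted p under 0.05). DMBT1 was chosen on these comparisons, so nothing is read from its place among those probes. Arrays of whole tissue cannot tell fewer cells of a type from less RNA per cell.

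The processed signal behind these levels ranged from 10.6 to 156 in control horns, from 296 to 1096 in placebo horns of treated gilts and from 577 to 3975 in hormone horns. The brighter probe was well above background on all 19 arrays. The dimmer probe was well above background on all 11 arrays of treated gilts and on 0 of the 8 control arrays, so control gilts have only an upper bound for it.

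Its levels in placebo horns were -5.60 in gilt 36, -5.97 in gilt 38, -6.40 in gilt 41, -4.58 in gilt 44 and -4.05 in gilt 47. In hormone horns they were -3.97 in gilt 36, -3.76 in gilt 38, -2.82 in gilt 40, -5.78 in gilt 41, -2.85 in gilt 44 and -3.27 in gilt 47. Gilt 41 was again the lowest in each kind of horn. Control horns measured between -8.91 and -6.77. A bound was set from the higher of the dimmest signal well above background on each control array and the probe's own signal. Against it the dimmer probe was at least 7.86-fold higher in hormone horns and at least 2.63-fold higher in placebo horns of treated gilts. The measured means gave differences of 4.26 ± 0.51 and 2.78 ± 0.53 log2 units (SE).

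The probes followed each other closely in treated gilts, where Pearson's r between them was 0.994 over 11 arrays. Over all 19 arrays it was 0.956, and none of the other tested probes had a higher r with the brighter DMBT1 probe, while 62 exceeded 0.9. The gap between the probes was 4.88 ± 0.15 log2 units (SD, n = 11) in treated gilts, and 4.96 ± 0.07 (n = 6) in hormone horns alone. In the 8 control horns, where the dimmer probe was below its detection limit, the gap scattered between 1.88 and 5.08.

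**Figure D2:**
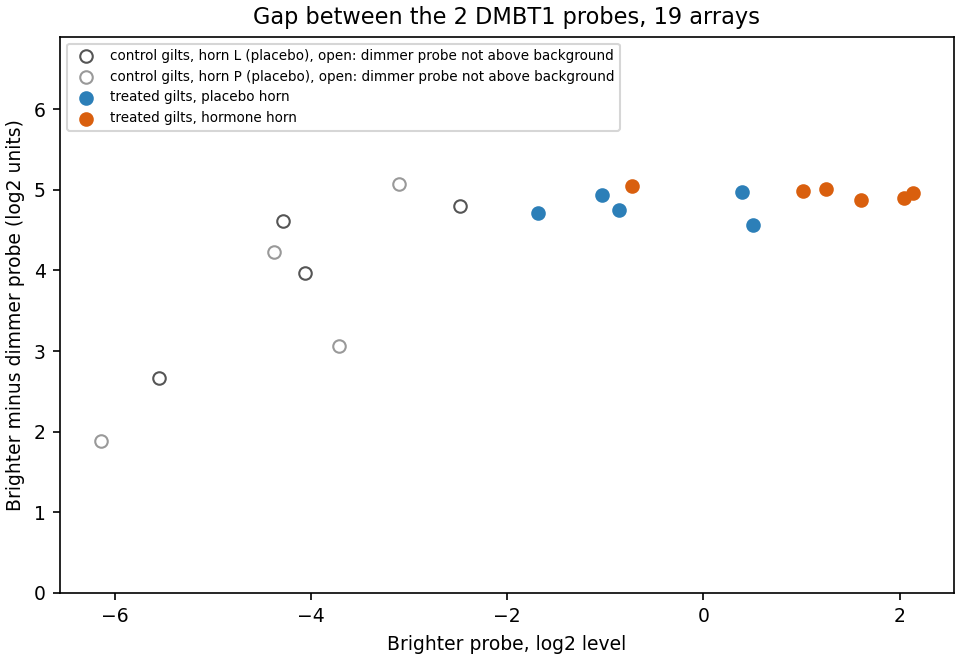
Gap between the DMBT1 probes (brighter minus dimmer, log2 units) against the level of the brighter probe on 19 arrays. Filled points are treated gilts, whose gap stays between 4.56 and 5.05. Open points are control horns, in which the dimmer probe was not well above background and the gap falls to 1.88 at the lowest level.

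The comparison of the horns within a treated gilt asks whether the infused hormones changed DMBT1 beyond what the opposite placebo horn showed. DMBT1 was higher in the hormone horn of all 5 gilts with both horns measured. In each of these gilts the hormone horn was marked P and the placebo horn L, so hormone and horn mark cannot be told apart within them. The difference was 1.87 log2 units in gilt 36, 2.28 in gilt 38, 0.95 in gilt 41, 1.65 in gilt 44 and 1.09 in gilt 47, with a mean of 1.57 ± 0.55 (SD, n = 5). The smallest differences belonged to gilts 41 and 47, which had the lowest and the highest placebo horn.

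The fit, which also used the hormone horn of gilt 40, put the difference at 1.66 ± 0.42 log2 units (SE), or 3.15-fold, with a 95% interval of 0.78 to 2.53. It did not pass after adjustment over all tested probes (limma, Benjamini-Hochberg adjusted p = 0.197). The dimmer probe gave 1.48 ± 0.36 (limma, adjusted p = 0.177). An exact two-sided sign-flip test of the 5 horn differences gave p = 0.0625 for either probe, the smallest p that 5 gilts allow. In this comparison 0.00256% of tested probes passed, a single probe that was not a DMBT1 probe, while 3877 probes had an unadjusted p under 0.05. Counted from the largest rise, DMBT1 ranked 5 in this difference among the 3010 genes with a symbol. The comparison uses the hormone and placebo arrays that also entered the choice of the gene.

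In control gilts, where both horns received placebo, the horn marked P minus the horn marked L was -1.85 log2 units in gilt 9, 0.35 in gilt 14, 1.17 in gilt 28 and -0.63 in gilt 46. DMBT1 was thus higher in P in 2 gilts and lower in 2. The fitted difference was -0.24 ± 0.47 (SE), with a 95% interval of -1.24 to 0.75 (limma, Benjamini-Hochberg adjusted p = 1.00). No tested probe passed in this comparison with limma (0% of 39092), and 935 had an unadjusted p under 0.05. The value of DMBT1 turned on gilt 9: without it the difference was 0.30. The lowest control level, -6.14 in horn P of gilt 9, lay near the dimmest signal well above background on its array (-6.98). The -5.55 in horn L of gilt 28 did so too (-6.35). These horns entered the largest difference in each direction.

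The horn difference of treated gilts (hormone minus placebo) was set against that of control gilts (P minus L), with signs kept. The horn differences of gilts 41 and 47 fell below the 1.17 of control gilt 28, and those of gilts 36, 38 and 44 lay above all 4 control gilts. In size regardless of sign, the -1.85 of control gilt 9 exceeded those of gilts 41, 44 and 47. The comparison is thus one of signed means and not of the spread between 2 placebo horns. The means differed by 1.81 log2 units (5 treated against 4 control gilts, exact two-sided permutation test over 126 regroupings, p = 0.0238, smallest possible 0.00794). For the dimmer probe the same permutation test gave a difference of 1.19 (p = 0.0794). It was not well above background in any control horn, so that value is not read as a measured difference. In the fit across all probes the interaction was 1.90 ± 0.63 (SE; limma, unadjusted p = 0.00745, Benjamini-Hochberg adjusted p = 0.999). No probe passed there with limma (0%), and 1265 had an unadjusted p under 0.05. The permutation result did not hold up to leaving out single gilts: the exact p was 0.0179 without gilt 28 and between 0.0536 and 0.0857 without any of the other 8, with a difference of 1.27 to 2.01.

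**Figure D3:**
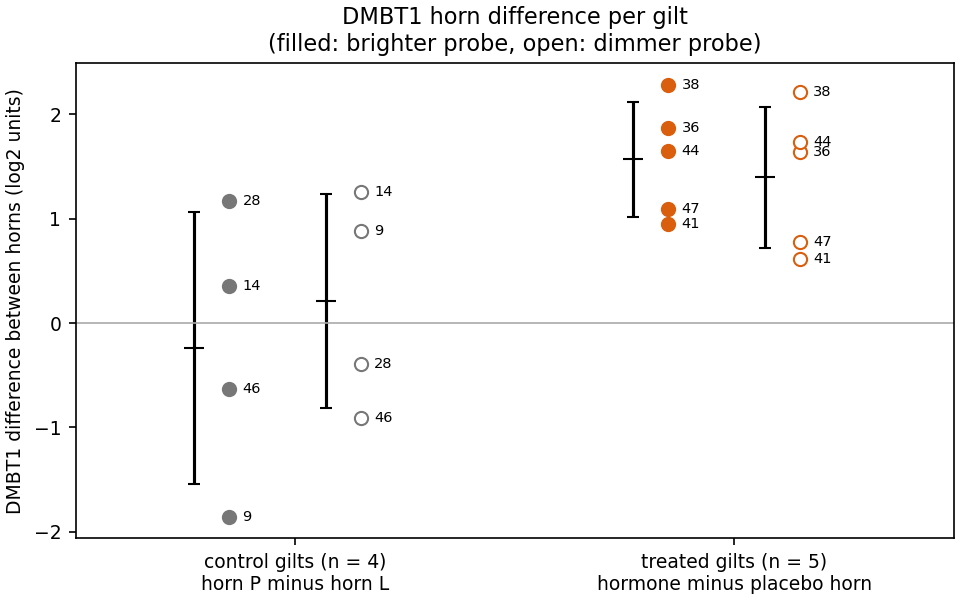
DMBT1 difference between the horns of each gilt in log2 units, with filled points for the brighter and open points for the dimmer probe; the bars are means ± SD. In 5 treated gilts the hormone horn exceeds the placebo horn by 0.95 to 2.28 (brighter probe), and in 4 control gilts the horn marked P differs from L by -1.85 to 1.17. The open points of control gilts come from signals not well above background.

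The arrays had been scanned on 3 dates, each with control and treated gilts. On the first date DMBT1 was at -6.14 to -4.29 in the horns of 1 control gilt, -0.86 to 0.39 in placebo horns of treated gilts and 1.02 to 2.05 in hormone horns. On the second it was at -5.55 to -3.71 in 2 control gilts, -1.69 in 1 placebo horn and -0.73 to 2.14 in hormone horns. On the third it was at -3.11 to -2.48, -1.03 to 0.51 and 1.25 to 1.60. The order of hormone, placebo and control horns therefore held on each date, with no overlap between control and treated gilts. The control gilts themselves differed between dates, so that the fitted difference of hormone horns from control gilts was 6.75 within the first date, 5.13 within the second and 4.22 within the third.

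Signal strength overlapped between the kinds of gilt. The 75th percentile ranged from 672 to 904 in control and from 597 to 983 in treated gilts. The share of spots well above background was 79.1% to 87.1% and 82.0% to 88.4%. The lowest percentile belonged to the hormone horn of gilt 36, and gilt 47 carried the highest levels of leukocyte markers. Without the hormone horn of gilt 36 and gilt 47 together, DMBT1 stood 5.36 above control gilts in hormone horns and 3.55 above them in placebo horns. The slide held both horns of a gilt and, except for 1 slide shared by gilts 9 and 36, no other gilt.

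The genes whose levels were most like DMBT1 were ranked by Pearson's r with it over the 19 arrays, among 3009 other genes with a symbol. These r values describe arrays that share gilts and groups, and a gene that differs between control and treated gilts obtains a high r from that alone. Over all 3009 genes the median r was 0.22, with 5% of genes below -0.63 and 5% above 0.80. Among the 10 highest were SMYD2 (0.94), a lysine methyltransferase; UBE2J1 (0.92), a ubiquitin-conjugating enzyme of the endoplasmic reticulum; SGK1 (0.92), a kinase that controls sodium channels; TMEM171 (0.91), a membrane protein; and HNRNPAB (0.91), an RNA-binding protein. Lower among the 10 were GGT1 (0.89), which cleaves extracellular glutathione, PDHB (0.89), a subunit of pyruvate dehydrogenase, UPK1B (0.89), a tetraspanin of the urothelial surface, and RPN2 (0.89), a subunit of the complex that attaches N-glycans. All 10 rose in hormone horns against control gilts and 7 rose in placebo horns.

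SMYD2 stood first. Its level ran from -0.18 to 0.48 in control horns, from 0.60 to 1.13 in placebo horns of treated gilts and from 0.83 to 1.53 in hormone horns, so that control and treated gilts did not overlap. It rose by 0.92 ± 0.15 log2 units (SE) in hormone horns (limma, adjusted p = 0.00242) and by 0.60 ± 0.15 in placebo horns (adjusted p = 0.0392). Over levels its r with DMBT1 was 0.85 within the 11 arrays of treated gilts and 0.78 within the 8 control arrays, and its Spearman rho over all arrays was 0.98. The change of SMYD2 was a small fraction of that of DMBT1 on the log2 scale, although the order of the arrays was nearly the same.

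UPK1B moved further. It ran from -4.22 to -2.47 in control horns, from -2.49 to 0.07 in placebo horns of treated gilts and from -2.46 to 0.69 in hormone horns. It rose by 2.42 ± 0.48 (SE) in hormone horns (limma, adjusted p = 0.00592) and by 1.95 ± 0.50 in placebo horns (adjusted p = 0.0370). GGT1 rose by 2.91 ± 0.45 in hormone horns and TMEM171 by 2.74 ± 0.32 (limma, adjusted p = 0.00230 and 0.000686). TMEM171 overlapped in no horn between control gilts (-3.57 to -2.25) and treated gilts (-1.29 to 0.28).

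At the other end were JADE1 (r = -0.91), a scaffold of a histone acetyltransferase, PPP4R3B (-0.91), a regulatory subunit of a protein phosphatase, APOM (-0.86), an apolipoprotein, RSF1 (-0.86), a chromatin remodelling factor, and TNNT1 (-0.85), the troponin T of slow muscle. All 5 fell in hormone horns against control gilts, although PPP4R3B did not pass without gilt 9, 14, 28 or 44. TNNT1 fell by 2.05 ± 0.40 log2 units (SE; limma, adjusted p = 0.00569), and its levels were -2.93 to -0.99 in control and -4.81 to -2.46 in treated gilts.

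The calls of placebo horns against control gilts depended on single gilts. Of the 49 genes named by rule, 38 passed in hormone horns against control gilts and 26 of these passed whichever gilt was left out, including all 10 genes most like DMBT1. In placebo horns 19 passed and 0 did so whichever gilt was left out. Gilt 28, a control, was among the gilts whose removal ended each of these 19 calls, and its removal left 0 called probes of 39092 in that comparison (limma). Gilts 9 and 14, also controls, ended most of them. The rule took up many genes because they passed in hormone horns or were like DMBT1. The counts therefore describe the named genes only. Over all 3010 genes with a symbol, 12.7% were higher and 2.46% lower in hormone horns against control gilts. How many of those kept their call without each gilt was not counted.

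**Figure D4:**
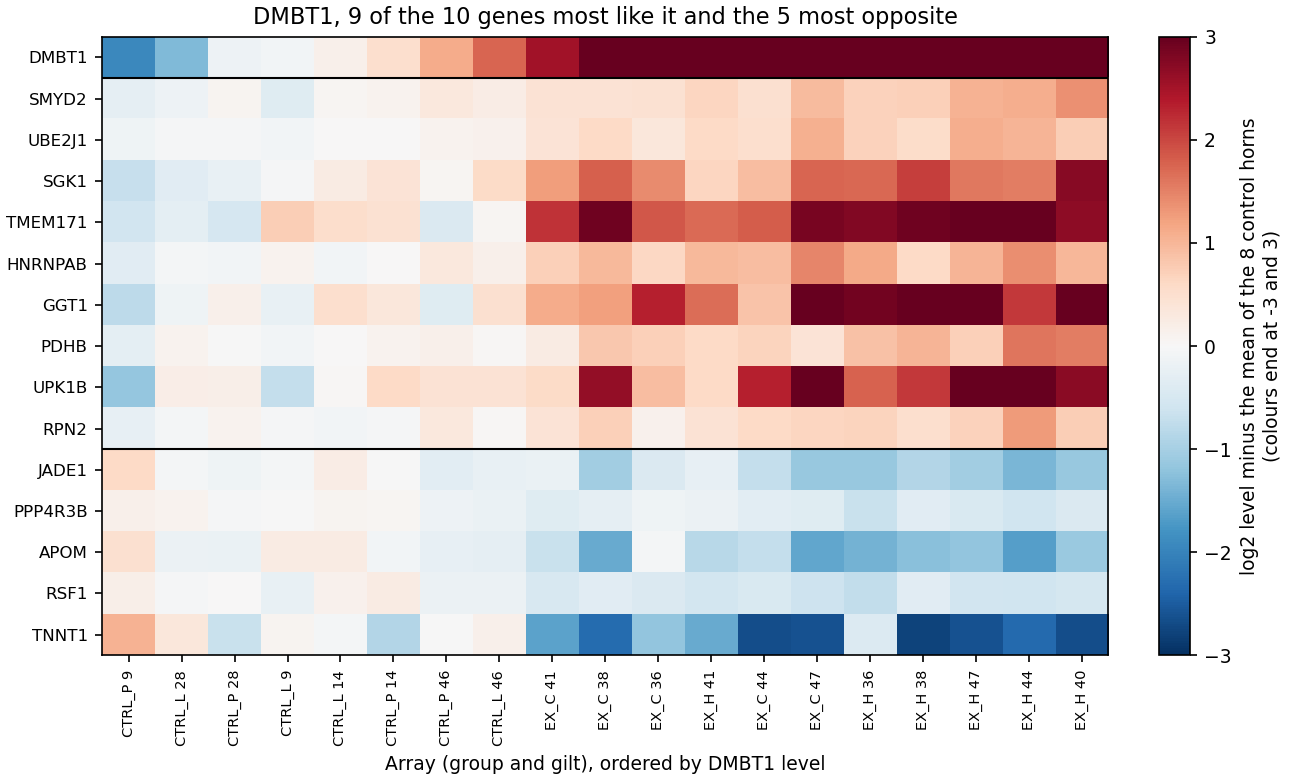
Levels of DMBT1, 9 of the 10 genes with the highest and the 5 with the lowest Pearson's r with it, each as the log2 difference from its mean over the 8 control horns (colour scale, ending at -3 and 3). The 19 arrays are ordered by DMBT1, and control horns fill the first 8 columns. The 9 genes turn from near 0 to red in treated gilts, palest in SMYD2, UBE2J1 and RPN2, and the 5 turn blue.

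To describe likeness that does not come from the groups, each gene's deviations from the 4 group means were set against those of DMBT1. The median r over 3009 genes was then 0.06, with 5% of genes above 0.51. The 10 highest were SMYD2 (0.77), the lipid droplet gene PLIN5 (0.76), the oxytocin receptor gene OXTR (0.75), PALMD (0.74), UPK1B (0.73), LRRC3B (0.72), the small GTPase gene RIT1 (0.71), VWA7 (0.71), MET (0.71), which encodes the receptor of hepatocyte growth factor, and FOS (0.70), a subunit of the transcription factor AP-1. SMYD2 and UPK1B were the only genes among the 10 highest by both measures. Of the 10, 3 rose in hormone horns against control gilts, namely SMYD2, UPK1B and RIT1, the last not without gilt 9, 14, 28, 40 or 44.

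OXTR had an r of 0.17 with DMBT1 over the levels of all arrays, and it did not pass in any comparison. The r of its deviations with those of DMBT1 was 0.96 over the 8 control arrays and 0.70 over the 11 arrays of treated gilts. For FOS these values were 0.87 and 0.51, and for UPK1B 0.69 and 0.83. PLIN5 was well above background on 5 of 19 arrays, so that its likeness rests largely on dim signals.

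The lists that follow hold genes of pathways and cell types around DMBT1. They were written with earlier results of these data known, so a high count in a list is no test of it. Their counts are read beside the background: of the 3010 genes with a symbol, 382 (12.7%) were higher and 74 (2.46%) lower in hormone horns against control gilts. In placebo horns 110 (3.65%) were higher and 25 lower. The median difference of these genes was 0.17 in hormone and 0.07 in placebo horns, against 0.01 and -0.06 over all tested probes. In hormone horns against placebo horns no gene with a symbol passed, and so no member of any list did.

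Of the SRCR family, 3 of 21 genes could be measured and none passed in hormone horns against control gilts; the median difference was 0.20. The scavenger receptor gene CD163 differed by 1.32 ± 0.65 log2 units (SE; limma, adjusted p = 0.197), with levels of 1.15 to 2.50 in control and 1.54 to 6.62 in hormone horns. Control and treated gilts overlapped for each of the 3 genes. They did not for DMBT1, which was chosen for standing higher in treated gilts.

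Of the proteins that DMBT1 binds, 12 of 21 could be measured and 1 passed, higher in hormone horns; the median was 0.40. This was C4A, complement component 4, which rose by 0.83 ± 0.22 (limma, adjusted p = 0.0211) and did not pass without gilts 9, 14 or 44. None passed in placebo horns.

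Among mucins and mucous epithelial products, 5 of 21 were measured, with a median of 0.20. MUC4, a mucin bound to the cell surface, rose by 2.27 ± 0.51 in hormone horns (limma, adjusted p = 0.0107). It ran from -0.02 to 1.83 in control horns, from 1.97 to 4.48 in placebo horns of treated gilts and from 1.72 to 4.78 in hormone horns. Its r with DMBT1 was 0.84 over levels and 0.54 over deviations. The 5 genes of the list had a median r of 0.11 over levels, with a lowest value of -0.34, and of 0.01 over deviations.

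Of 28 mucosal defence genes, 23 were measured, 9 were higher and 3 lower in hormone horns, and 4 were higher and 1 lower in placebo horns; the medians were 0.84 and 1.11. S100A8 and S100A9, the calprotectin subunits, rose by 6.41 ± 1.15 and 5.65 ± 1.06 in hormone horns (limma, adjusted p = 0.00361 and 0.00449), and the acute phase gene SAA3 by 5.33 ± 0.99 (adjusted p = 0.00417). REG3G, an antibacterial lectin, fell by 3.69 ± 0.69 (adjusted p = 0.00423). S100A8 ran from -4.86 to -2.94 in control horns, -4.59 to 4.98 in placebo horns and -1.54 to 4.85 in hormone horns, and its deviations had an r of 0.00 with those of DMBT1. SAA3, with 0.08, was likewise not ordered as DMBT1 was within the groups, whereas REG3G, at -0.48, ran opposite to it. The 6 others of the list that passed and were not named by rule, singled out after their values were seen, were LCN2, SLPI, CHI3L1 and CFB, all higher, and DEFB1 and NOS2, lower. With a gilt left out, 8 to 13 of the list passed in hormone horns. SLPI, an inhibitor of leukocyte proteases, had an r of 0.79 with DMBT1 and rose by 2.43 ± 0.62 (limma, adjusted p = 0.0185).

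Among genes of pattern sensing and NF-kB, 14 of 23 were measured and 5 were higher in hormone horns, with a median of 0.89; 2 were higher in placebo horns, with a median of 0.96. The adaptor of Toll-like receptors MYD88 rose by 1.10 ± 0.26 in hormone horns and 1.24 ± 0.27 in placebo horns (limma, adjusted p = 0.0142 and 0.0257). The NF-kB subunit gene RELA rose by 0.61 ± 0.15 and 0.69 ± 0.15 (adjusted p = 0.0150 and 0.0260). CD14 and NFKBIA rose in hormone horns by 1.42 ± 0.41 and 1.13 ± 0.35 (adjusted p = 0.0328 and 0.0422). Without gilt 14 none of the 5 passed, and without gilt 47 there were 3.

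Of IL-6 and IL-22 family signalling, 9 of 18 were measured, with medians of 0.32 in hormone and 0.39 in placebo horns. Only 1 passed, higher in both comparisons with control gilts. This was the transcription factor gene CEBPB, which rose by 1.78 ± 0.30 in hormone horns and 1.92 ± 0.30 in placebo horns (limma, adjusted p = 0.00252 and 0.00945). Its level was -4.47 to -2.70 in control, -2.15 to -0.83 in placebo and -2.28 to -1.29 in hormone horns, so that control and treated gilts did not overlap. Its r with DMBT1 was 0.88 over levels and 0.59 over deviations. Over the 9 genes of the list r ranged from -0.45 to 0.88 over levels. The median was 0.31 over levels and 0.16 over deviations. The difference of CEBPB between hormone and placebo horns was -0.14 ± 0.21 (limma, adjusted p = 0.812).

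Of estrogen-responsive uterine genes, 16 of 24 were measured, 2 were higher and 1 was lower in hormone horns (median 0.51), and none passed in placebo horns (median 0.19). LPAR3, a lysophosphatidic acid receptor of the uterine epithelium, rose by 2.72 ± 0.46 (limma, adjusted p = 0.00272), AKR1B1, an aldo-keto reductase, by 2.04 ± 0.52 (adjusted p = 0.0187), and EGF fell by 2.04 ± 0.46 (adjusted p = 0.0106). The call of AKR1B1 was lost without gilt 9, 14 or 28. LPAR3 ran from -5.32 to -3.56 in control horns, -4.55 to -1.58 in placebo horns and -2.60 to -0.64 in hormone horns. Its placebo horns overlapped control gilts. Those of DMBT1 did not, but that gene was chosen for standing higher in treated gilts. The deviations of LPAR3 had an r of -0.05 with those of DMBT1. The receptor genes ESR1 and PGR did not pass: they differed by -0.59 ± 0.20 and 0.32 ± 0.23 in hormone horns (adjusted p = 0.0647 and 0.388).

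Markers of epithelium and stroma were looked at in the labelled tissue. All 9 measured epithelial and all 4 measured stromal markers, of 15 and 10 listed, were well above background on every array. The share over all non-control spots was 79.1% to 88.4% per array, so this count is no check of the tissue. Among epithelial markers 3 were higher in both comparisons with control gilts, with medians of 0.47 in hormone and 0.41 in placebo horns. EPCAM, an adhesion molecule of epithelial cells, rose by 0.69 ± 0.11 in hormone horns, CDH1, which encodes E-cadherin, by 0.95 ± 0.25, and the tight junction gene CLDN4 by 1.35 ± 0.33 (limma, adjusted p = 0.00250, 0.0204 and 0.0146). The call of CDH1 was lost without gilt 14, 28 or 44. The r with DMBT1 was 0.87, 0.88 and 0.83 for these 3. Over the 9 measured markers r ranged from -0.27 to 0.88 over levels. The median was 0.46 over levels and 0.12 over deviations. In the same list KRT8 differed by -0.33 ± 0.22 and CLDN7 by 0.11 ± 0.23, and neither passed. Both genes were picked after their values were seen. The summed level of the 9 markers, in units of each array's 75th percentile, was 123 to 167 in control, 137 to 212 in placebo and 121 to 235 in hormone horns, which overlapped throughout. The part of epithelial cell number in the DMBT1 difference was not tested.

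Leukocyte markers stood higher in some treated horns than in control horns. Of 6 measured neutrophil markers (11 listed), S100A8, S100A9 and S100A12 were higher in hormone horns and 1 was higher in placebo horns. The list median in hormone horns was 3.72. Their summed level was 4.66 to 8.65 in control, 8.10 to 119 in placebo and 10.3 to 101 in hormone horns. TREM1 was well above background on 9 of 19 arrays and the other 5 on all 19.

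The neutrophil markers were set beside DMBT1 in each horn of the treated gilts. Gilt 47 had the highest marker medians, 7.50 above the control mean in its placebo and 6.55 in its hormone horn, where DMBT1 was at 0.51, the highest of the placebo horns, and at 1.60. In the placebo horn of gilt 44 the median neutrophil marker stood at -0.31 relative to the control mean, where DMBT1 was at 0.39, the second highest of the placebo horns. In gilt 41 it was 3.82 and 5.31 above the control mean in placebo and hormone horn, where DMBT1 was the lowest of each kind at -1.69 and -0.73. In the same order it was 1.36 and 1.42 in gilt 36, with DMBT1 at -0.86 and 1.02. In gilt 38 it was 4.69 and 4.71, with DMBT1 at -1.03 and 1.25. In the hormone horns of gilts 40 and 44 it was 2.70 and 1.86, with DMBT1 at 2.14 and 2.05. The control horns lay between -0.82 and 0.60. The median r of these markers with DMBT1 was 0.58 over levels and 0.01 over deviations. Without gilt 47 DMBT1 stood 5.36 above control gilts in hormone horns and 3.53 in placebo horns.

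Of 7 measured macrophage and dendritic cell markers (12 listed), LYZ and CD14 were higher in hormone horns, where the list median was 0.71. Their summed level was 7.77 to 15.3 in control, 13.9 to 209 in placebo and 14.3 to 180 in hormone horns, with gilt 47 highest in both. Among T and natural killer cell markers 10 of 12 were measured and 1 passed, GZMB, a granzyme, which fell by 0.94 ± 0.21 (limma, adjusted p = 0.0105). The list median was 0.69, and the call was lost without gilt 28. Of B and plasma cell markers 3 of 8 were measured and none passed; MS4A1 differed by 0.80 ± 0.51 (adjusted p = 0.334). Of 4 measured stromal markers THY1 and COL1A2 were higher in hormone horns, by 2.40 ± 0.67 and 0.74 ± 0.21 (limma, adjusted p = 0.0276 and 0.0289), and the list median was 0.56. Each call was lost without gilt 9, 14 or 28, and that of THY1 also without gilt 40 or 46 and that of COL1A2 without gilt 38 or 44. The part of these cell types in the DMBT1 difference was not tested beyond the values given here.

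**Figure D5:**
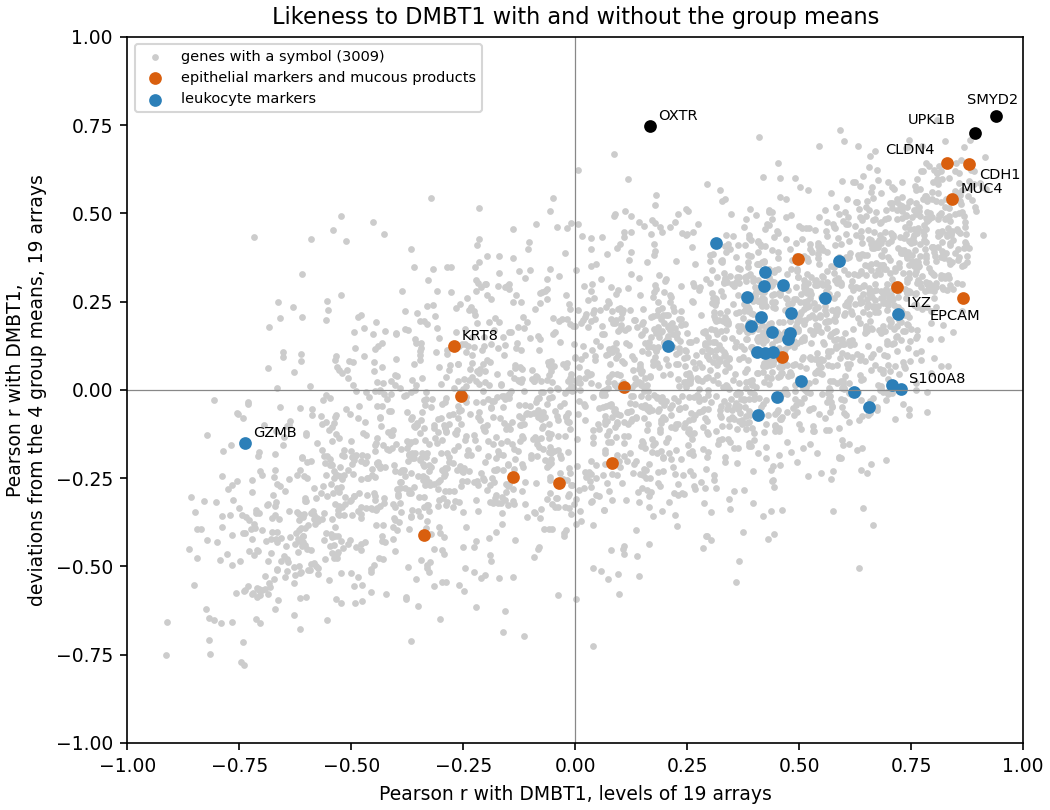
Pearson's r with DMBT1 over the levels of 19 arrays (horizontal) and over deviations from the 4 group means (vertical) for 3009 genes with a symbol (grey). Leukocyte markers (blue) lie mostly at positive r over levels and lower over deviations, such as S100A8 at 0.73 and 0.00. The epithelial genes CDH1, CLDN4 and MUC4 (orange) lie high on both axes, with 0.88 and 0.64 for CDH1, and other epithelial markers such as KRT8 do not.

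The genes next to DMBT1 on the chromosome were taken from the gene order of the RefSeq annotation of Sscrofa11.1. On one side lie BTBD16, PLEKHA1 and HTRA1, which matched no probe here. On the other lies a group of spermadhesin genes, which encode small secreted proteins known from boar seminal plasma. AWN matched no probe, and PSP-I had a probe that was too dim to be tested. AQN-1 differed by 0.14 ± 0.32 log2 units in hormone horns against control gilts, PSP-II by -0.27 ± 0.18, SPMI by 1.00 ± 0.41 and the next gene, C14H10orf120, by 0.15 ± 0.12. None of these 4 passed (limma, adjusted p = 0.821, 0.356, 0.125 and 0.448). These neighbours were named for their place beside DMBT1.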

How the data were processed

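Endometrial RNA of 19 uterine horns from 10 gilts was hybridised to one-colour Agilent arrays. Per the labels' protocols, RNA was extracted with TRIzol and labelled with Cy3. The deposited scanner files give an intensity per spot on a linear scale, made by Agilent Feature Extraction 10.7.3.1 per the file headers, whereas the submitters' processing notes name version 9.1. The processed signal had been background-corrected within each array, and arrays had not been scaled to each other. A value table that the authors deposited is on the log2 scale, with its normalization not given in the sources used here. It was used only as an alternative (its r with the scanner's log2 signal was 0.996 to 0.999 per array).

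Control spots and outlier-flagged spots were left out, spots of a probe averaged, and log2 values taken relative to the 75th percentile of each array. Probes were kept if well above background on 4 or more arrays and measured in each group. These 39092 probes were fitted in R 4.3.3 with limma 3.58.1 (lmFit, eBayes with trend), the 4 groups in one fit and gilt as a random block (duplicateCorrelation with statmod 1.5.0, correlation 0.536). All tests were two-sided, and p-values were adjusted over all tested probes (Benjamini-Hochberg, threshold 0.05). The fit was tested on simulated data. The gilt number in the labels marks the animal, so arrays with the same number are paired. Deviations from group means correlated within a gilt at 0.334 to 0.795 and between gilts at 0.143 at most.

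Probes were named by matching RefSeq accessions without version: 6768 of 43603 probes had a symbol, and the brightest tested probe stood for a gene. DMBT1, the gene lists and the tests were chosen with earlier results of these data known. Genes were named by a rule: the 10 highest and 5 lowest by Pearson's r with DMBT1 over the arrays, the 10 highest by deviations from group means, up to 4 members per list that passed in hormone horns against control gilts (the member with the smallest p where none passed), and S100A8, SAA3, REG3G, ESR1, PGR and LPAR3. The number of arrays limits the precision. Alternatives covered scaling, background correction, filters, the block, slide, scan date, and leaving out gilts. Some genes that fall under this rule are not reported here. No sequences are given, since none were used here.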

Additional observations from a re-analysis of the deposited data

Results flagged for a closer look

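The signed difference between the horns of a gilt was larger in treated than in control gilts for the brighter DMBT1 probe: the mean hormone minus placebo difference of 5 treated gilts exceeded the mean P minus L difference of 4 control gilts by 1.81 log2 units (exact two-sided permutation test, p = 0.0238). All 5 treated gilts were higher in the hormone horn, against 2 of 4 control gilts higher in P. The exact p was between 0.0536 and 0.0857 without any of 8 of the 9 gilts, and 0.0179 without gilt 28. The test of the same difference across all probes did not pass (limma, adjusted p = 0.999). For the dimmer probe the difference was 1.19 (exact two-sided permutation test, p = 0.0794), from control signals that were not well above background in any horn. No horn stood out from its group by Dixon's criterion for either probe.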

How the results depend on the processing

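The DMBT1 difference of hormone horns from control gilts stayed positive under all 28 alternatives, between 3.97 and 6.75 log2 units (main value 5.43). It was 3.97 with normexp on median signals, 6.75 and 4.22 within the first and the third scan date, and 4.26 with the dimmer probe. Leaving out a gilt gave 5.10 to 5.91. For placebo horns against control gilts (3.78) the same settings gave 2.45, 4.98, 2.53 and 2.78, and leaving out a gilt 3.45 to 4.25. The hormone minus placebo difference stayed between 1.48 and 1.82 and did not pass under any of its alternatives (limma adjusted p of 0.117 to 0.997). The control difference between P and L turned positive within the second scan date (0.76) and without gilt 9 (0.30), in a leave-one-out range of -0.71 to 0.30. The 0.21 of the dimmer probe is no measured difference, since all 8 control signals of that probe were not well above background. The horn difference of treated minus control gilts was 0.86 to 3.62, and it passed in no limma setting after adjustment over all tested probes. The exact permutation test (1.81, p = 0.0238) was not adjusted over probes. Its p therefore stands beside the unadjusted limma p of the main fit, 0.00745, and not beside the adjusted ones.

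Counts of called probes moved far more. Without the replicate block, 6972 probes passed in hormone horns against control gilts (4553 with it), 3570 in placebo horns against control gilts (1728), and 0 in hormone against placebo horns (1), where DMBT1 differed by 1.75 (adjusted p = 0.988). With the horns of control gilts averaged the first counts were 2493 and 0, within the 3 scan dates 4, 82 and 0 for the first comparison and 4, 10 and 0 for the second, and leaving out a gilt gave 1454 to 5283 and 0 to 3294. The placebo count was also 14 with only its groups in the fit, 3162 with slide as a term, and 429 without gilt 47 and without the hormone array of gilt 36. The single probe of hormone against placebo horns became 33 with quantile normalization, 16 with gilt as a fixed replicate block or slide as a term, 5 with scan date as a term, 4 without the hormone horn of gilt 36, and 21 also without gilt 47. It became 0 with normexp, the deposited value table, the filter on all 19 arrays and within each scan date, and 0 to 16 without a gilt. The cause was not tested.

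Of the 10 genes most like DMBT1, 4 remained among the 10 highest by Spearman's rho, 4 by gilt means, 5 without gilt 47, 6 without the hormone horn of gilt 36, 7 with quantile normalization, 9 in the deposited value table and 8 without the 2 arrays farthest from the median. Genes that had not passed turned sign in hormone horns against control gilts: ESR1 with slide as a term (0.17), LRRC3B without gilt 9 (leave-one-out range -0.038 to 0.31) and within the second and the third scan date (-0.19 and -0.17), MS4A1 within the second (-0.019), OXTR without gilt 41 (leave-one-out range -0.97 to 0.027) and within the first and the second (0.32 and 0.26), PALMD within the third (-0.35), and PLIN5 with normexp (-0.020). Of the other alternatives for single genes and lists, 1659 kept direction and call, 187 lost a call, 15 gained one and 182 moved by more than their limit. Leaving out the hormone array of gilt 36, alone or with gilt 47, and the 2 farthest arrays was chosen after seeing the data. Within scan dates the gilt correlation of the whole fit was used, and slide as a term rests on the 1 slide shared by a control and a treated gilt. Signals of the dimmer DMBT1 probe in control gilts lie under the detection limit and allow bounds only.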
